A study of Mus musculus with 18 samples.

Results

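Interferon regulatory factors (IRFs) were examined in mouse eosinophils cultured with apoptotic cells (ACs). The members are the 8 genes Irf1, Irf2, Irf3, Irf4, Irf5, Irf7, Irf8 and Irf9, found in the deposited table of 54446 genes by their Ensembl identifiers. The rule was a list of genes and used no response value, but it was chosen with earlier results of these data known. The eosinophils came from the peritoneal cavity of NJ.1638 Il5Tg mice, which overproduce the eosinophil growth factor IL-5 from a transgene, and the labels give the strain as C57BL/6; cells bearing Thy1.2 or B220 were first removed with beads. All 18 libraries come from eosinophils kept for 18 h with 5 ACs each, the ACs being wild-type thymocytes driven into apoptosis by dexamethasone, and then selected again with anti-Siglec-F beads. The Type 1 experiment has 4 groups of 3 libraries, in which the eosinophils met ACs with no stimulus, with E. coli, with IFN-γ, or with both IFN-γ and E. coli (written IFN-γ + E. coli). The IL-4 experiment has 2 groups of 3, ACs alone and IL-4 + ACs. Each stimulus was set against the ACs of its own experiment, so the 3 Type 1 comparisons share the same ACs libraries, and every control here had already met dead cells. The labels do not say whether the 3 libraries of a group came from separate mice; the study's methods call its replicates biological, and a heat plot legend for ACs against resting eosinophils assigns each column to its own mouse. The p-values measure the spread between these libraries.

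IRFs are transcription factors that bind repeats of the bases GAAA in the regulatory DNA of interferon-responsive genes. Irf1, switched on by the IFN-γ signal, activates antigen presentation and antimicrobial genes, and Irf2 competes with it for the same sites. Irf3, Irf5 and Irf7 lie dormant until sensors of microbes trigger their phosphorylation, Irf9 acts with Stat2 in the complex that answers type I interferon, and Irf4 and Irf8 bind DNA with Ets or AP-1 family partners such as Spi1 and Batf. Among myeloid cells, Irf8 is known for its place in the monocyte and macrophage lineage, and Irf4 for alternative activation by IL-4.

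Values are the authors' normalized read counts, in which 1 read stands for 0.5269 to 5.3614 units. The libraries held 779421 to 7782072 reads on genes (median 4461121), and those numbered 3 in the IL-4 experiment were the shallow ones, so that 3 reads, taken as the floor of detection, equal 16.08 with ACs and 15.42 with IL-4 + ACs there. The eosinophil markers Siglecf and Ccr3 were strong in every group (means of 1630 to 3237 for Siglecf and 2974 to 4498 for Ccr3), whereas the granule gene Epx was at 0 to 25.7. All 10 peritoneal macrophage markers were above the floor in every library, and their summed normalized count was 18538 to 23790 with ACs, 10110 to 12377 with E. coli, 30121 to 39853 with IFN-γ, 12389 to 13416 with IFN-γ + E. coli, 28082 to 41433 with ACs of the IL-4 experiment and 22329 to 37311 with IL-4. The summed eosinophil markers were 16864 to 18343, 18334 to 19636, 10351 to 11584, 15053 to 17579, 21858 to 24488 and 24723 to 27377 in the same order. With IFN-γ 5 of 8 tested eosinophil markers fell past the threshold given below, and none rose, where 9.96% of all genes fell. The 5 were Siglecf, Ear6, Alox15, Cebpe and Il5ra. With both stimuli 2 fell (Ear2 and Siglecf) and none rose, where 17.2% of all genes fell. With E. coli 1 rose and 1 fell, and with IL-4 2 of 10 rose and none fell (10.3% and 1.09% of all genes passed there). Thymocyte markers summed to 45.5 to 180 in any library. In bulk RNA, fewer cells of a type and less RNA per cell cannot be told apart.

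The promoters of the members whose transcripts passed the threshold against ACs (below) are shown because they let a reader see which signal-linked elements lie at their starts. They are RefSeq windows of GRCm38.p6, running from 250 bases before to 50 bases after the start site, and capitals mark every match to a searched motif.
Irf1 (chr11:53769764-53770063, + strand): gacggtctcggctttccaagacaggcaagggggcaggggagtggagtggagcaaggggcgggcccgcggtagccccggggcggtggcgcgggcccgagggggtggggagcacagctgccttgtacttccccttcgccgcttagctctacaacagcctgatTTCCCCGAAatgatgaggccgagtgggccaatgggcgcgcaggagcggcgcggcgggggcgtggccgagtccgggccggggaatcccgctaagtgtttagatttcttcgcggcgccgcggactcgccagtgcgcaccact
Irf2 (chr8:46739495-46739794, + strand): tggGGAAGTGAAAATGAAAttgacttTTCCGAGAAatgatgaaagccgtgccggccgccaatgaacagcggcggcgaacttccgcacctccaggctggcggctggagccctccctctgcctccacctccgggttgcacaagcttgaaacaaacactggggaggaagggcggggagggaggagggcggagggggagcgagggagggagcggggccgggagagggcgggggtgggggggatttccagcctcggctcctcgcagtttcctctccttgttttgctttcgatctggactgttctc
Irf5 (chr6:29526375-29526674, + strand): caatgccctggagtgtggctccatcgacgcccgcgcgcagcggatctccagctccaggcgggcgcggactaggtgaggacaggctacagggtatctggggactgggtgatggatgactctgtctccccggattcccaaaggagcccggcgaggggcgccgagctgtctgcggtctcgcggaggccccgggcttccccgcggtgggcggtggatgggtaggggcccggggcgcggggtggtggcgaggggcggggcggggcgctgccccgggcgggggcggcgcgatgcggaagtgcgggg
Irf8 (chr8:120736108-120736407, + strand): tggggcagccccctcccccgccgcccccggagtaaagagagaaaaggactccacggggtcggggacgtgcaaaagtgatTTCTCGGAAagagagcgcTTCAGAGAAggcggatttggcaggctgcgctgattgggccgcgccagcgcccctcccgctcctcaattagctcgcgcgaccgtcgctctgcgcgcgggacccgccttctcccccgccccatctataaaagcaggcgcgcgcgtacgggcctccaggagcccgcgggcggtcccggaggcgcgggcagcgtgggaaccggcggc

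The motifs searched on both strands were the gamma-activated site of IFN-γ-responsive genes (GAS, TTCNNNGAA), the interferon-stimulated response element (ISRE, GAAANNGAAA), the wider spacing that Stat6 prefers (TTCNNNNGAA), the Ets-IRF composite element (EICE, GGAANNGAAA) and a kappa B site (GGGANTTTCC). Irf1 held 1 GAS, 90 to 82 bases before the start. Irf8 held 2, from 171 to 163 and from 153 to 145 bases before it. Irf2 held an EICE (247 to 238 bases before the start), an ISRE (241 to 232) that overlaps it, and a GAS (224 to 216). The Irf5 window, with 74.7% G and C, matched none of the 5. Of 32851 RefSeq promoters, 8.3% held a GAS, 3.44% an ISRE, 2.72% an EICE, 6.95% the Stat6 spacing and 0.411% the kappa B site. Among the other windows, 1 of the 2 Irf9 starts held the Stat6 spacing 2 to 11 bases after the start, and Irf3, Irf4 and Irf7 held no match. All 8 members had a window and 3 of them (Irf1, Irf8 and Irf9) had 2, giving 11. A match is a run of letters and not a measured binding site.

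**Figure D1:**
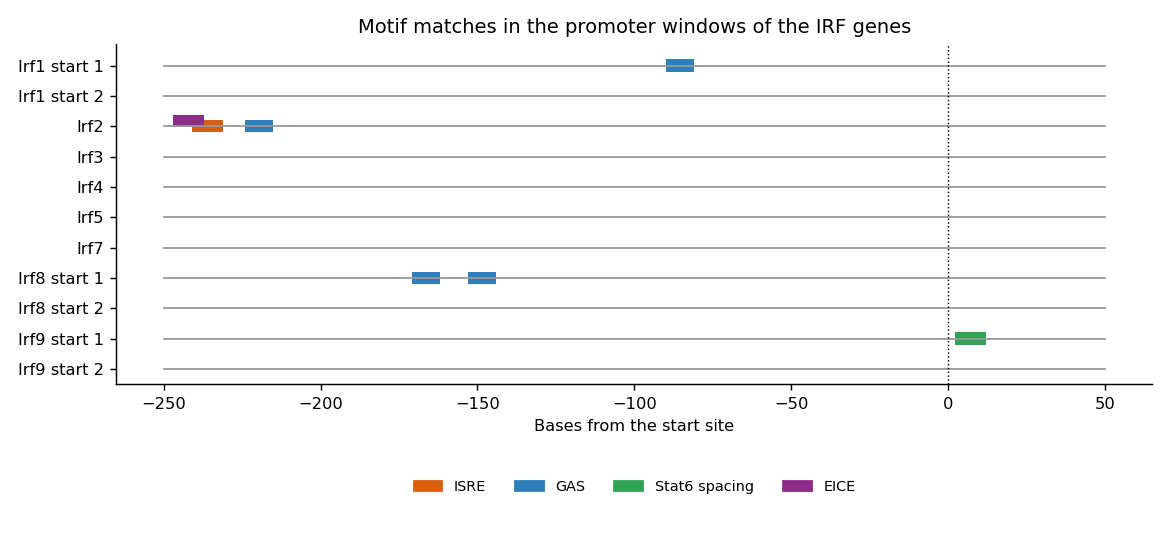
Motif matches in the 11 promoter windows of the 8 IRF genes, by position in bases from the start site (dotted line). Boxes mark gamma-activated sites (GAS), interferon-stimulated response elements (ISRE), the Stat6 spacing and the Ets-IRF composite element (EICE). The GAS matches sit before the first listed starts of Irf1, Irf2 and Irf8.

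Against ACs alone, IFN-γ raised 3 of the 7 IRF transcripts tested, Irf1, Irf5 and Irf8, and IFN-γ + E. coli raised 4, the same 3 and Irf2. None fell with either. E. coli moved none past the threshold, which was an adjusted p under 0.05 with a change of at least 1.5-fold. Of all 10166 genes tested, 21.4% passed with IFN-γ (11.4% up and 9.96% down), 31.9% with both stimuli (14.7% up and 17.2% down) and 10.3% with E. coli (5.05% up and 5.25% down). The 3 libraries of a group lay wholly apart from the ACs for 6 of the 7 members with IFN-γ, where 42.9% of all genes did so, for 4 with both stimuli, against 48.8%, and for 3 with E. coli (Irf1, Irf2 and Irf5), against 38.3%. For E. coli, limma gave 3 of the 7 members an unadjusted p under 0.05 (Irf2, Irf5 and Irf8). The highest of these, 0.036 for Irf8, ranked 2365 from the lowest among the 10166 genes. On the recovered reads edgeR and DESeq2 also put none past the threshold. Irf4 was left untested in this experiment, with a mean under 10. With IL-4, none of 8 passed, where 1.09% of 10669 genes did (0.74% up and 0.347% down). Of the 8, Irf4 reached a mean of 10 only through its IL-4 libraries. Limma gave Irf4 and Irf7 an unadjusted p under 0.05. That of Irf7, 0.043, ranked 925 from the lowest among the 10669 genes. There too edgeR and DESeq2 passed none.

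**Figure D2:**
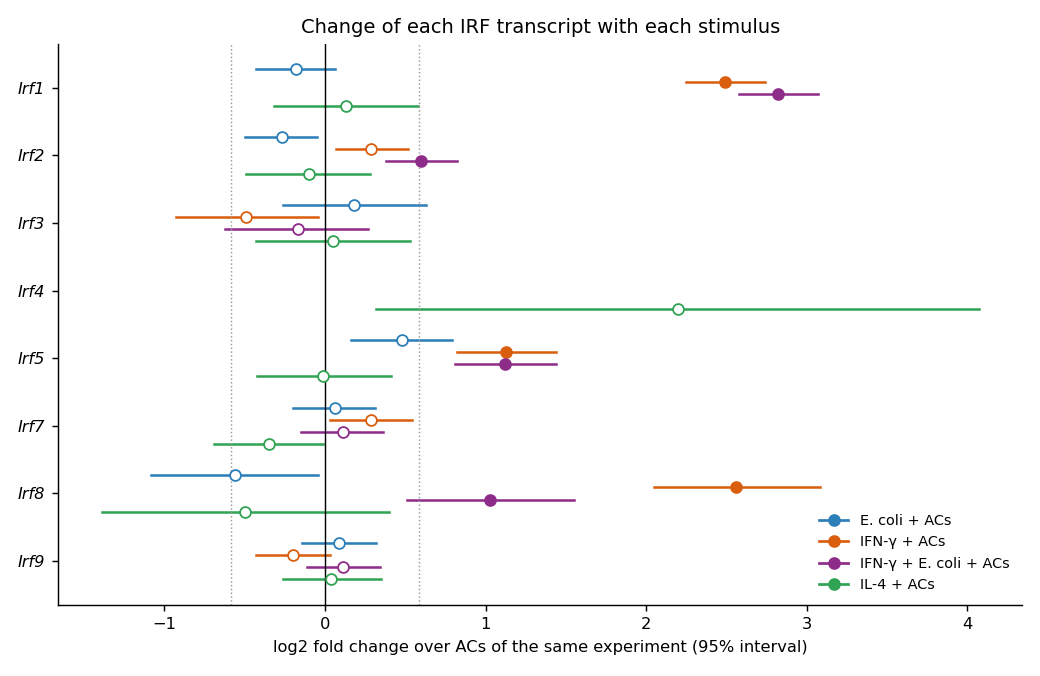
Log2 fold change of each IRF transcript over the ACs of its own experiment (horizontal axis), with 95% intervals from the limma fit. Filled circles passed the threshold and open ones did not; dotted lines mark 1.5-fold. Irf1 stood at 2.49 with IFN-γ and 2.82 with both stimuli, and Irf8 at 2.56 and 1.03. Irf4 was tested with IL-4 only.

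Irf1, the IFN-γ-inducible activator, lies on chromosome 11 (chr11:53770014-53778374, + strand, GRCm38). Its normalized counts with ACs were 791, 823 and 736 in replicates 1 to 3, with E. coli 720, 630 and 720, with IFN-γ 4639, 4445 and 4158, and with IFN-γ + E. coli 5615, 6394 and 4725. Every library that received IFN-γ lay above every one that did not. The rise was 5.63-fold with IFN-γ (log2 2.49, SE 0.12, adjusted p = 6.8e-12) and 7.07-fold with both stimuli (log2 2.82, adjusted p = 9.3e-13). With E. coli alone Irf1 was at 690 ± 52.4 (SD, n = 3) against 783 ± 44.2 (SD, n = 3), a log2 difference of -0.18 (adjusted p = 0.35). The order was therefore E. coli, ACs, IFN-γ and IFN-γ + E. coli, in which the outer neighbours did not differ past the threshold: adding E. coli to IFN-γ gave a log2 difference of 0.33 (SE 0.12, adjusted p = 0.054). In the IL-4 experiment Irf1 was at 319, 254 and 418 with ACs and 366, 310 and 391 with IL-4, groups that overlap, and the difference was 0.13 on the log2 scale (95% interval -0.32 to 0.58).

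Irf2, the competitor of Irf1, spans 46739732 to 46847458 on chromosome 8 (+ strand). It stood at 2614, 3137 and 2806 with ACs, 2350, 2288 and 2418 with E. coli, 3699, 3306 and 3464 with IFN-γ, and 3879, 4307 and 4793 with both. The 4 groups formed 4 separate steps without overlap between neighbours. Against ACs the level passed with both stimuli (1.52-fold, log2 0.60, SE 0.11, adjusted p = 0.00019), whereas the difference with IFN-γ alone was 1.23-fold (adjusted p = 0.048) and the step down with E. coli was -0.27 on the log2 scale (adjusted p = 0.1). Against E. coli, IFN-γ + E. coli was 1.83-fold higher (adjusted p = 6.9e-06). The 1.52-fold change lay close to the fold threshold and was under it (log2 0.48 to 0.58, adjusted p 0.0023 or less) with upper quartile rescaling, with array weights, without ACs replicate 1 and without IFN-γ + E. coli replicate 3. With IL-4 Irf2 was at 1249, 1355 and 858, against 1290, 1171 and 1196 with ACs, overlapping ranges and a log2 difference of -0.10 (95% interval -0.49 to 0.28).

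Irf8 (chr8:120736358-120756694, + strand) had the largest fold of the 7 tested members between IFN-γ and E. coli alone. It was at 111, 118 and 78.3 with ACs, 80.4, 65.4 and 60.7 with E. coli, 485, 698 and 646 with IFN-γ, and 128, 246 and 283 with IFN-γ + E. coli. IFN-γ alone took it 5.92-fold up (log2 2.56, SE 0.25, adjusted p = 2.1e-07). With E. coli added the rise over ACs was 2.04-fold (log2 1.03, adjusted p = 0.0027), and the libraries with both stimuli all lay below those with IFN-γ, a 2.9-fold difference (log2 -1.53, SE 0.25, adjusted p = 0.00022). Irf8 was the 1 IRF of 7 to fall when E. coli followed IFN-γ, and in that comparison 14.6% of all genes passed (8.61% down and 5.96% up). The groups did not overlap for 4 of the 7 members (Irf1, Irf2, Irf8 and Irf9) and for 29.6% of all genes. E. coli on its own gave -0.56 on the log2 scale (adjusted p = 0.16), with 1 E. coli library inside the range of the ACs.

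Marker sums of other cells also differed between these groups. Relative to ACs, the mean of the summed macrophage markers was 1.62 with IFN-γ, 0.54 with E. coli and 0.598 with both stimuli, whereas the ratio of Irf8 means was 5.94, 0.67 and 2.13. In the fit, 4 of the 10 macrophage markers rose and 1 fell with IFN-γ, where 11.4% of all genes rose and 9.96% fell. With E. coli none rose and 6 fell (5.05% and 5.25% of all genes). With both stimuli 2 rose, Marco and Adgre1, and 5 fell (14.7% and 17.2% of all genes). When E. coli was added to IFN-γ none rose and 8 of 10 fell (5.96% and 8.61% of all genes). B cell markers, nearly all from Ighm, summed to 902 to 1045 with ACs, 312 to 318 with E. coli and 104 to 183 in the libraries with IFN-γ, and dendritic cell markers to 25.7 to 80.4 in all 18 libraries. The neutrophil list, most of whose sum was Cxcr2, was 5.98 times its ACs mean with E. coli, 1.56 with IFN-γ and 3.76 with both stimuli. With IL-4 its sum was 2.79 times the mean of the ACs of that experiment. The part of other cells in the Irf8 values was not tested.

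**Figure D3:**
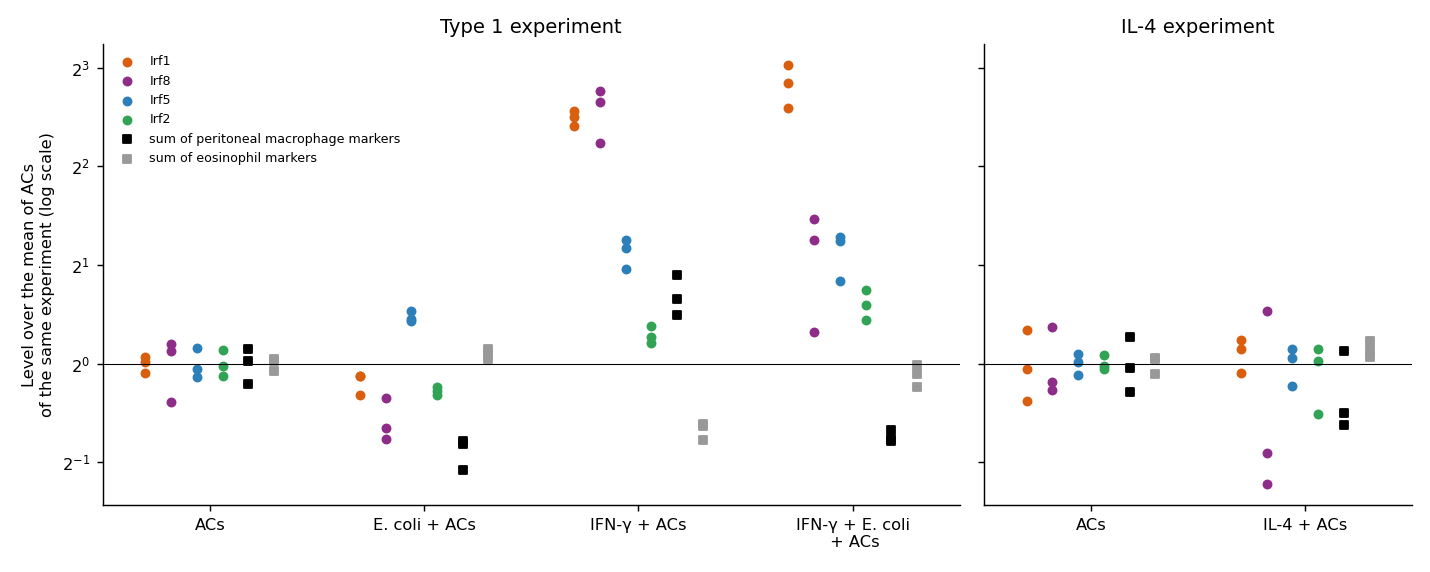
Level in each library relative to the mean of the ACs libraries of the same experiment (log axis, base 2), for Irf1, Irf8, Irf5 and Irf2 (circles) and the summed peritoneal macrophage and eosinophil markers (squares). With IFN-γ + E. coli, all 4 IRFs shown lay above 1 in every library while the macrophage sum had a mean of 0.598; in the IL-4 experiment Irf8 and the macrophage sum were both highest in replicate 3.

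In the IL-4 experiment Irf8 was at 138, 146 and 214 with ACs and 71.3, 89.0 and 242 with IL-4. Replicate 3 stood highest in both groups, as did its macrophage marker sum (41433 with ACs and 37311 with IL-4), and it rests on 40 and 47 Irf8 reads. The log2 difference over the 6 libraries was -0.50 (95% interval -1.39 to 0.40, adjusted p = 0.73). Without both replicate 3 libraries, a choice made after seeing the data, Irf8 was lower with IL-4 by a log2 difference of -0.83 (adjusted p = 0.014), and with array weights, which give discordant libraries less weight, by -0.79 (adjusted p = 0.012). In those 4 libraries the macrophage sum was also lower with IL-4 (24158 and 22329, against 28082 and 33207).

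Irf4, the relative of Irf8 linked to IL-4 activation (chr13:30749226-30766976, + strand), was close to the floor. With IL-4 it was at 17.96, 11.07 and 25.70, from 31, 21 and 5 reads, and with the ACs of that experiment at 0.75, 4.67 and 5.36, from 1, 6 and 1 reads. The groups did not overlap, as for 17.3% of all genes in that comparison. The fitted difference was 2.20 on the log2 scale (SE 0.84, 95% interval 0.32 to 4.07, adjusted p = 0.43), and Irf4 cleared the filter on low values only through its IL-4 libraries. Without both replicate 3 libraries its mean was under 10 and it was not tested. In the 12 Type 1 libraries Irf4 ranged from 0 to 8.28, or 0 to 8 reads, which allows no statement on any stimulus there.

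**Figure D4:**
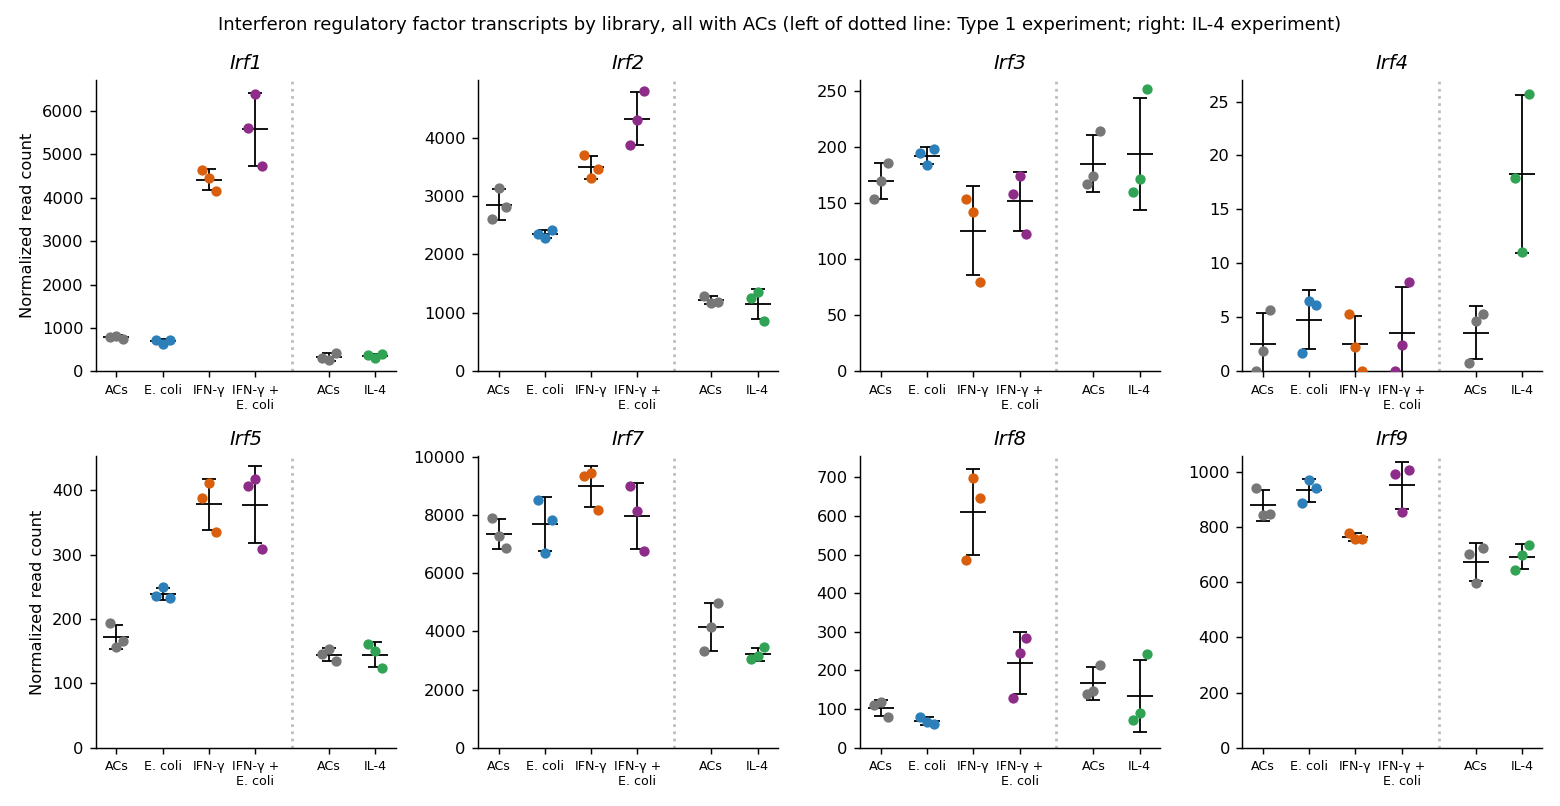
Normalized read count of each IRF transcript (vertical axis, from 0, a separate scale per gene) in the 6 groups. Circles are libraries, horizontal marks the means of 3 and bars the SD, cut off at 0. Irf1 and Irf8 rose in the groups with IFN-γ, and Irf4 was above 10 in the IL-4 libraries alone.

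Irf5, which acts below Myd88 on inflammatory cytokine genes, spans 29526625 to 29541871 on chromosome 6 (+ strand). Its counts were 194, 157 and 166 with ACs, 235, 249 and 232 with E. coli, 388, 411 and 334 with IFN-γ, and 406, 418 and 309 with both. The ACs lay lowest, E. coli next and the groups with IFN-γ on top, and these last overlapped. The rise was 2.19-fold with IFN-γ (log2 1.13, SE 0.15, adjusted p = 1.2e-05) and 2.18-fold with both (adjusted p = 8.3e-06), and the difference between these groups was -0.01 on the log2 scale (95% interval -0.32 to 0.31). With E. coli alone the difference had an adjusted p of 0.042 but, at 1.39-fold, was under the fold threshold. IL-4 left it at 160, 150 and 123 against 146, 154 and 134 (95% interval of the log2 difference -0.42 to 0.41). Exons of Irf5 share 411 bases with Tnpo3 on the opposite strand, at most 221.63 units in any library, and whether counting used strand is not given in the sources used here.

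Irf7 and Irf3, the factors that switch on type I interferon genes, passed in no comparison of a stimulus with ACs. Irf7 (chr7:141262706-141266481, - strand) was at 7917, 7267 and 6883 with ACs, 8529, 6686 and 7829 with E. coli, 9334, 9460 and 8182 with IFN-γ, and 9008, 8133 and 6762 with both. IFN-γ had the highest mean, 1.22-fold over ACs and without overlap (adjusted p = 0.088), and the other neighbours overlapped. With IL-4, at 3044, 3147 and 3464, it was 1.28-fold lower than with ACs, at 3336, 4167 and 4975, with an adjusted p of 0.5. Irf3 (chr7:44997648-45002848, + strand) was at 154, 170 and 186 with ACs, 195, 184 and 199 with E. coli, 154, 142 and 80.0 with IFN-γ, and 158, 175 and 123 with both. Its 1 call was between stimuli: with IFN-γ it was 1.59-fold lower than with E. coli (log2 -0.67, SE 0.21, adjusted p = 0.031). That call was lost in 6 of 15 alternatives: no filter, array weights, and leaving out E. coli replicate 1, 2 or 3 or IFN-γ replicate 3. The smallest log2 difference, -0.38 (adjusted p = 0.18), came without IFN-γ replicate 3, a library with 39 Irf3 reads. With IL-4 Irf3 was at 160, 172 and 252 against 168, 174 and 214.

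Irf9, the DNA-binding member of the type I interferon complex (chr14:55603571-55610030, + strand), also passed in none. Its group means were 878 with ACs, 933 with E. coli, 764 with IFN-γ, 951 with both, 674 with ACs of the IL-4 experiment and 692 with IL-4. The 3 IFN-γ libraries (780, 758 and 755) lay below all others of the Type 1 experiment, yet the log2 difference from ACs was -0.20 (SE 0.11, adjusted p = 0.2). Its exons share 123 bases with Rnf31 on the same strand, at most 170.32 units in any library. Its partner Stat2 rose 1.68-fold with IFN-γ (392 to 657, adjusted p = 0.00027) and 2.27-fold with both.

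Whether the effect of one stimulus depended on the other was tested directly, as the departure of IFN-γ + E. coli from the sum of the single log2 changes. None of the 7 members passed, where 7.44% of all genes did (3.16% upward and 4.28% downward). Limma gave 4 members an unadjusted p under 0.05 (Irf1, Irf2, Irf5 and Irf8). The highest of these, 0.035 for Irf5, ranked 1954 from the lowest among 10166 genes. On the recovered reads edgeR and DESeq2 passed Irf2 alone (log2 0.62 in each). For Irf2 the limma departure was 0.58 (SE 0.15, adjusted p = 0.023), just under 1.5-fold. For Irf8 it was -0.98 (SE 0.35, adjusted p = 0.095), so the effect of E. coli on Irf8 was not shown to differ between cells with and without IFN-γ. Leaving out IFN-γ + E. coli replicate 3, the library highest in Irf8 and lowest in Irf1 of its group, put Irf8 at -1.20 (adjusted p = 0.035) and Irf1 at 0.63 (adjusted p = 0.015, against 0.51 and 0.065 with it). Over all leave-outs the departure ranged from -1.20 to -0.63 for Irf8 and from 0.41 to 0.63 for Irf1. Irf8 passed in 2 of 21 alternatives and Irf1 in 1. For Irf5 the departure was -0.48 (adjusted p = 0.18).

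Set directly against E. coli, IFN-γ gave higher Irf1 (6.4-fold, adjusted p = 6.5e-12), Irf8 (8.71-fold, adjusted p = 2.2e-08) and Irf5 (1.57-fold, adjusted p = 0.0035), and lower Irf3; 16.6% of all genes passed, 9.84% higher and 6.72% lower. For 6 of the 7 members, all but Irf7, these groups did not overlap, as for 36.8% of all genes. With E. coli present in both groups, IFN-γ still raised Irf1 8.03-fold, Irf8 3.01-fold, Irf2 1.83-fold and Irf5 1.57-fold, where 19.4% of genes passed (9.79% up and 9.57% down) and 39.3% did not overlap. The Irf5 value fell under the fold threshold with upper quartile rescaling (log2 0.55) and without IFN-γ + E. coli replicate 2 (log2 0.57).

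The 2 cytokines were compared as changes, each within its own experiment. The change with IL-4 was lower than that with IFN-γ for 4 of 7 members: Irf8 by a log2 difference of -3.06 (SE 0.49, adjusted p = 0.00013), Irf1 by -2.36 (SE 0.21, adjusted p = 1.1e-07), Irf5 by -1.14 (SE 0.22, adjusted p = 0.00097) and Irf7 by -0.64 (SE 0.20, adjusted p = 0.031). The Irf7 call held in 9 of 21 alternatives and the other 3 in all 21. Of 10414 genes, 14.3% passed, 8.09% with a lower change with IL-4 and 6.17% with a higher one. Cytokine and experiment differ together here.

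With ACs alone, IRF levels already differed between the experiments. Irf1 had a mean of 330 ± 82.8 when cultured for the IL-4 comparison and of 783 ± 44.2 for the Type 1 comparisons (SD, n = 3 each), 2.41-fold lower in the former (adjusted p = 0.00076). Irf2 was 2.33-fold lower, at 1219 ± 63.1 against 2852 ± 265 (SD, n = 3 each, adjusted p = 6.3e-05), and Irf7 1.79-fold lower, at 4159 ± 820 against 7356 ± 523 (SD, n = 3 each, adjusted p = 0.003). None was higher; of 10592 genes 19.2% passed, 8.53% lower and 10.7% higher. The groups lay apart for 6 of 7 members, all but Irf3, and for 42.2% of all genes. Irf8 was higher by 0.69 on the log2 scale with an adjusted p of 0.054, where the macrophage sum was also higher (28082 to 41433 against 18538 to 23790); whether that had a part in it was not tested. Among the targets of the Irf9 complex 9 of 16 were lower and none higher, with Mx1 at 204 against 640 and Cmpk2 at 417 against 1383; 6 of the 9 stayed past the threshold with any 1 library left out, and Ifit1, Ifit3 and Rsad2 did not. The labels name no batch, and whatever else differed between the experiments cannot be told apart from the experiment.

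Partners and regulators of IRFs were measured from a list of 13 genes, of which 12 were tested. With E. coli none of them passed (median 0.14 on the log2 scale), where 10.3% of all genes did. With IFN-γ 2 rose (Batf2 and Stat2) and 2 fell (Batf3 and Ikzf1), with a list median of -0.01 on the log2 scale; these 4 are 33.3% of the list, beside 21.4% of all genes. With both stimuli 3 rose and 2 fell, 41.7% beside 31.9%. Batf2, an AP-1 family partner of Irf1, rose from a mean of 12.7 to 97.0 (8.03-fold, adjusted p = 4.3e-06) and stood at 66.5 with both stimuli. Batf3, a partner of Irf8 and Irf4, was at 25.2, 31.9 and 35.1 with ACs and 7.91, 28.7 and 6.16 with IFN-γ, from 6, 25 and 3 reads. It fell in the fit (log2 -1.35, adjusted p = 0.036), but IFN-γ replicate 2 lay within the ACs: without it the difference was -1.98, and leaving out any of the other 5 libraries lost the call (-0.95 and an adjusted p of 0.15 without IFN-γ replicate 3). With IL-4 Batf3 rose 2.41-fold (49.6, 49.0 and 53.6 with ACs, 113, 135 and 123 with IL-4, adjusted p = 0.02). It was the 1 member of the list to pass there (8.33%, beside 1.09% of all genes). That call was lost when replicate 1 or 2 of either group was left out (log2 1.20 to 1.33, adjusted p of up to 0.16). Batf was at 50.7 with ACs, 68.1 with E. coli and 34.0 with IFN-γ, the last 2 differing 1.97-fold (adjusted p = 0.0093; log2 -0.81 and 0.069 without E. coli replicate 1). Spi1, the Ets partner of Irf8 and Irf4, passed in no comparison of a stimulus with ACs (3898 to 5313 in the Type 1 groups). With both stimuli Trim21 also rose and Irf2bp1, a co-repressor that binds Irf2, fell 2-fold (235 to 121, adjusted p = 0.00049), while Irf2bp2 had an adjusted p of 0.0056 at 1.45-fold.

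Upstream of the IRFs lie the interferons, their receptors and the sensors of microbes. Of 10 interferons, receptors and receptor kinases 7 were tested, and the ligands Ifnb1, Ifna4 and Ifng were too low to test. With IFN-γ the type I receptor chain Ifnar2 rose 1.96-fold (78.7 to 157, adjusted p = 0.00037) and the IFN-γ receptor chain Ifngr1 fell 1.51-fold (262 to 174, adjusted p = 0.0082), a change at the edge of the fold threshold that was under it in 4 of 6 leave-outs, ACs replicates 2 and 3 and IFN-γ replicates 1 and 2 (smallest log2 -0.51). Jak2, a kinase of the IFN-γ receptor, fell 1.7-fold with E. coli (1992 to 1173, adjusted p = 0.00035). Of 17 sensors, adaptors and kinases tested, 1 rose and 2 fell with IFN-γ, 17.6% of the list and so no more than the 21.4% of all genes: Tbk1, which phosphorylates Irf3 and Irf7, rose 1.9-fold (179 to 342, adjusted p = 8.4e-05), and Irak4 and Tmem173 (STING) fell 1.94-fold and 1.76-fold. Tmem173 also fell with E. coli, 1.99-fold (adjusted p = 0.0018), as the 1 call of the list (5.88%, beside 10.3% of all genes). With both stimuli 2 rose and 2 fell, 23.5% beside 31.9%. Tlr7, an endosomal RNA sensor, fell 2.42-fold with both stimuli (85.7 to 35.5, adjusted p = 0.0011). IL-4 moved none of the 7 receptor genes and none of 17 sensors past the threshold, where 1.09% of all genes passed. Ticam2, which reached a mean of 10 only through 1 group, is left out of that count.

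Genes downstream were taken from lists by factor. Of 12 genes for which Irf1 is a known activator, the class II transactivator Ciita reached the minimum mean only through its IFN-γ libraries and is left out of the counts. The other 11 all rose with IFN-γ and all rose with both stimuli, with medians of 1.35 and 1.58 on the log2 scale against a median of all genes within 0.05 of 0; 21.4% and 31.9% of all genes passed in these comparisons. Among these calls, Il27 with IFN-γ was the 1 lost when 1 library was left out (ACs replicate 2 or IFN-γ replicate 2, the latter giving log2 0.83 and an adjusted p of 0.087). Nos2, which makes nitric oxide, went from 76.6 to 5363 with IFN-γ (70.1-fold, adjusted p = 2.2e-14), and Gbp5 from 26.9 to 412 (16.3-fold). Ciita was at 0, 0 and 3.26 with ACs, 23.7, 37.8 and 30.8 with IFN-γ and 11.4, 7.33 and 6.90 with both. E. coli raised 3 of the 11, Nos2 (8.42-fold), Gbp5 (3.54-fold) and Il27 (2.72-fold), with a median of 0.17. IL-4 raised none of 11 tested. Of all genes, 5.05% rose with E. coli and 0.74% with IL-4. Nos2 and Gbp5 departed downward from additivity (log2 -3.05 and -2.06, adjusted p = 5.8e-07 and 0.0049) and Nlrc5, the class I transactivator, upward (0.87, adjusted p = 0.011).

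Of 16 targets of the Irf9 complex, 9 rose with IFN-γ, 9 with both stimuli and 5 with E. coli, and none fell, with medians of 0.62, 0.64 and 0.28 on the log2 scale. These are 56.2%, 56.2% and 31.2% of the list, beside 21.4%, 31.9% and 10.3% of all genes. With any 1 library left out 7, 5 and 4 of these calls held throughout, and those lost were Ifit3 and Oasl2 with IFN-γ, Mx2, Oasl1, Usp18 and Cmpk2 with both, and Usp18 with E. coli. Ifit2 rose 5.6-fold with IFN-γ (324 to 1822, adjusted p = 1e-09), Rsad2 3.06-fold and Isg15 2.62-fold; with E. coli Rsad2 rose 2.15-fold and Isg15 2.01-fold. In 8 of the 16 the combination fell short of the summed single changes, as for 4.28% of all genes. Among them were Ifit3 (log2 -1.44, adjusted p = 2.6e-05), Isg15 (-1.33) and Ifi44 (-1.33). None of the 16 exceeded the summed changes, as 3.16% of all genes did. Ifi44 and Bst2 lost their call with some library left out (smallest log2 -1.12 without ACs replicate 2, and -0.52 without E. coli replicate 1). Adding E. coli to IFN-γ lowered Ifit3 (log2 -0.91, adjusted p = 3.3e-05); Ifit2 and Ifi44 passed too but were at -0.58 and -0.61 without IFN-γ + E. coli replicate 2, where neither passed. IL-4 moved none of the 16 (median -0.10), in a comparison where 1.09% of all genes passed.

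Of 7 tested Irf4-linked genes of IL-4 activated macrophages, Pdcd1lg2 and Cd209a reached the minimum mean only through their IL-4 libraries and are left out of the counts. Of the other 5, 4 rose with IL-4: Chil3 (7477 to 44702, 5.94-fold, adjusted p = 0.00043), Ccl24 (280 to 999, 3.59-fold, adjusted p = 0.00065), Mrc1 and Retnla. None fell, and their median was 1.81 on the log2 scale. Of all genes, 0.74% rose and 0.347% fell in that comparison. Retnla (58000 to 96258) lost its call in 5 of 7 leave-outs, all of single libraries but ACs replicate 3 (log2 0.68 at the lowest, adjusted p of up to 0.11). Pdcd1lg2 was at 6.77, 10.9 and 0 with ACs and 104, 123 and 149 with IL-4. In the Type 1 experiment Ccl17 and Prdm1 reached the minimum mean only through 1 group, and Ccl17 was at 5.69, 8.45 and 11.4 with ACs and 56.7, 61.9 and 53.4 with IFN-γ. Of the other 5, with IFN-γ the arginase gene Arg1 rose 4.18-fold (6716 to 28168) and Chil3 rose too, while Mrc1, the mannose receptor, fell 7.06-fold (109 to 17.9; log2 -2.82, and -2.17 without IFN-γ replicate 1). With E. coli Mrc1 fell 9.53-fold and Arg1 1.56-fold, the latter under the fold threshold without E. coli replicate 2 (log2 -0.55). These genes are also expressed by macrophages, whose marker sums in each group are given above; the part of such cells was not tested.

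**Figure D5:**
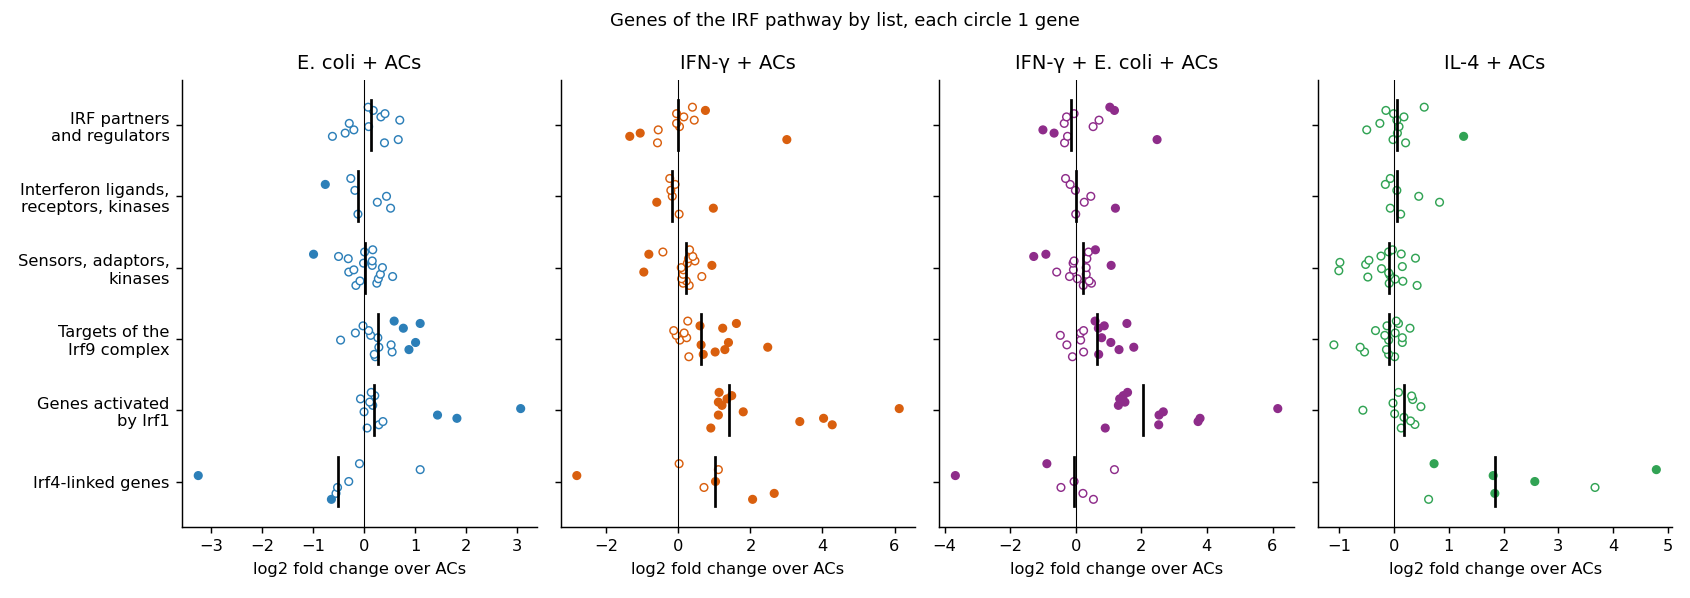
Log2 fold change over ACs of the same experiment (horizontal axis, separate scale per panel) for the genes of 6 lists around the IRFs, 1 panel per stimulus. Each circle is 1 tested gene, filled where past the threshold, and black bars are list medians. Every gene of the list for which Irf1 is a known activator, Ciita included, is filled with IFN-γ and with both stimuli. Genes that reached the minimum mean only through 1 group (Ciita, Ccl17, Prdm1, Pdcd1lg2 and Cd209a, and Ticam2 with IL-4) are drawn but left out of the counts in the text.

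Over the 12 Type 1 libraries, the genes with the most similar profile to each member past the threshold in that experiment were listed among 6747 genes with a mean of at least 50, as a description. The libraries share groups, so these r values mostly reflect the group means. Irf1 was closest to Tapbpl, Tmem140 and Igtp (Pearson r of 0.993 each on the log2 scale). Irf8 was closest to Arg1 (0.978), 4930455G09Rik (0.978) and St3gal5 (0.972), Irf5 to Aldoa (0.976), Prelid1 (0.975) and Ppard (0.97), Irf2 to Cep350 (0.967), Abhd18 (0.961) and Gbp8 (0.953), and Irf3 to Nop9 (0.948), Ap1m1 (0.948) and Zfp523 (0.924).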

How the data were processed

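RNA was measured in 18 libraries by CEL-Seq2, a method that reads only the 3' end of each transcript. The deposited values are a signal, the normalized count of each gene, which the authors made by dividing its reads by a DESeq2 size factor. The submitters' processing notes name TopHat2 2.1.0, HTSeq 0.6.1, DESeq2 1.26.0 and GRCm38; the paper's methods describe a further pipeline, so which one made the table is not certain. Every value was a whole multiple of 1 step per library (tolerance 0.02 normalized units), so reads were recovered for 100.0% of values. Symbols and positions come from GENCODE M21 for 54409 of 54446 identifiers.

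Comparisons were fitted with limma 3.58.1 (lmFit, eBayes with trend) in R 4.3.3 on log2(value + 1), so fold changes of low genes are understated, over genes whose mean was 10 or more among the libraries fitted. P-values were adjusted by Benjamini-Hochberg over all genes tested. The threshold was an adjusted p under 0.05 and 1.5-fold. Fits used the 12 Type 1 libraries, the 6 of the IL-4 experiment, the 6 with ACs alone, or all 18 for IL-4 against IFN-γ. The ACs libraries of the IL-4 experiment were told from the others by their descriptions, which follow its naming. No pair of replicates agreed within counting error (chi-square per degree of freedom 3.92 to 13.15). Same-numbered libraries did not deviate together (mean r 0.01 in each experiment), so the numbers were not taken as pairs.

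Alternatives were a pseudocount of 5, no filter, a minimum mean of 50, a block on the replicate number, upper quartile rescaling, array weights, count tests of the recovered reads with edgeR 4.0.16 and with DESeq2 1.42.0, no fold threshold, all 18 libraries in one fit, each library left out in turn, and, added after seeing the data, both replicate 3 libraries of the IL-4 experiment left out. Scripts were tested on simulated data. The members and gene lists were chosen with earlier results of these data known. Named are all members, the partners Stat2, Batf, Batf3, Spi1, Irf2bp1 and Irf2bp2, up to 3 genes per list and comparison with the largest change past the threshold, and the 3 most similar genes per member past the threshold in the Type 1 experiment; other genes are named as parts of a count. One listed sensor, Mb21d1, was not matched by that symbol, and 1 partner is not reported here. Motifs were searched in RefSeq promoters of GRCm38.p6.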

Additional observations from a re-analysis of the deposited data

Results flagged for a closer look

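The responses of 4 IRF transcripts to IL-4 and to IFN-γ, each taken against the ACs of its own experiment, differed in the test of the difference itself. For Irf8 the IL-4 change minus the IFN-γ change was -3.06 on the log2 scale, for Irf1 -2.36 and for Irf5 -1.14, and each of these stayed past the threshold in 21 of 21 alternatives. For Irf7 it was -0.64, from a difference of 0.29 with IFN-γ and one of -0.35 with IL-4, neither of which passed alone, and the call held in 9 of 21 alternatives. Experiment and cytokine cannot be told apart. Groups of 3 libraries were not screened for single outlying libraries.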

How the results depend on the processing

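The rises of Irf1, Irf5 and Irf8 with IFN-γ and with IFN-γ + E. coli passed in 15 of 15 alternatives each, as did the lower Irf8 with both stimuli than with IFN-γ. Irf2 with both stimuli passed in 11 of 15, Irf5 with both against E. coli in 13 and Irf3 with IFN-γ against E. coli in 9. Small differences changed sign: with upper quartile rescaling Irf7 and Irf9 were each at -0.01 with both stimuli, and at -0.05 and -0.07 for both against E. coli; with edgeR and DESeq2 Irf5 was at 0.02 for both stimuli against IFN-γ and at 0.03 with IL-4; with array weights the IL-4 differences were 0.07 for Irf5, 0.02 for Irf2, -0.01 for Irf9 and -0.03 for Irf3. Leaving out libraries gave -0.02 to 0.15 for Irf7 with E. coli, -0.05 to 0.16 for Irf7 and -0.02 to 0.1 for Irf9 in both stimuli against E. coli, -0.09 to 0.13 for Irf5 in both against IFN-γ, -0.16 to 0.31 for Irf3 in the departure from additivity, and with IL-4 -0.09 to 0.1 for Irf5, -0.23 to 0.09 for Irf2, -0.15 to 0.17 for Irf3, -0.04 to 0.1 for Irf9 and -0.05 to 0.31 for Irf1.

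Without a fold threshold 1 IRF (Irf5) was higher with E. coli and 1 (Irf2) departed upward from additivity; edgeR and DESeq2 also gave 1 upward (Irf2) and array weights 1 downward (Irf8). Leaving out libraries gave 0 to 1 IRF upward, 0 to 1 downward, 0 to 1 lower with IFN-γ (Irf3, without IFN-γ replicate 1) and 0 to 1 lower with IL-4. With array weights the count with IL-4 was 1 higher (Irf4, which reached the minimum mean only through its IL-4 libraries) and 1 lower (Irf8). Genes departing from additivity numbered 756, 495 with all 18 libraries in one fit and 400 to 1026 leaving out libraries. For IFN-γ against E. coli no IRF was lower without the filter or with array weights, as Irf3 was then lost (0 each; 0 to 1 leaving out libraries). For the ACs of the IL-4 experiment 1 IRF (Irf8) was higher without the filter and with a minimum mean of 50, and 1264 to 2734 genes passed leaving out libraries, against 2038. For IL-4 against IFN-γ 2423 genes passed with array weights, against 1486. Genes past the threshold with IL-4 numbered 116, 208 without the filter, 745 with array weights, 212 with edgeR, 209 with DESeq2, 221 in the 18-library fit and 47 to 656 leaving out libraries, the highest without both replicate 3 libraries. With the replicate block it was 74, and the block changed no call of an IRF; in the check of the numbers 4 of 12 Type 1 libraries and 0 of 6 others correlated best with their own number. The cause of these shifts was not tested. Depth limits Irf4, and all low values in the pair of shallow libraries.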
